A study of Mus musculus with 6 samples.

Results

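The genes described are 10 noncoding host genes of small nucleolar RNAs (snoRNAs) whose spliced RNA is a known target of nonsense-mediated decay: Gas5, Snhg1, Snhg3, Snhg4, Snhg5, Snhg6, Snhg8, Snhg12, Snhg15 and Zfas1. They were taken from the gene table by symbol. All 10 symbols were found, in 11 of 26469 rows, because Snhg4 stands on 2 rows with different gene IDs. All 11 rows passed the filter on low counts. Levels are in CPM, counts scaled to a common library size, with a TMM factor per library that corrects for RNA composition.

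RNA was sequenced from 6 cultures of mouse CD4 T cells taken from spleen, 3 mutant and 3 control. The mutant cells came from Sf3b1K700E/fl/Cd4Cre mice, which carry a Cre recombinase gene, and are annotated as Sf3b1 mutation. The control cells came from Sf3b1K700E/fl mice without Cd4Cre and are annotated as WT, so the conditional allele was present in both groups. The Cd4 promoter drives Cre in developing T cells, so the recombined allele in these mice is not limited to regulatory T cells. Both groups started as naive cells and were grown towards regulatory T cells for 36 h. The medium held TGF-β at 5 ng/ml, activating hamster antibodies against CD3 and CD28, and antibodies that block IL-4 and IFNγ. The labels do not tie cultures to animals, and the p-values below describe only the spread between cultures, part of which may be technical. SF3B1 is the subunit of the U2 particle of the spliceosome that binds near the branch point, and K700E is its most frequent change in cancer.

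A snoRNA host gene is transcribed as a long precursor whose introns hold the snoRNAs. Splicing releases the introns, from which box C/D snoRNAs (guides of ribose methylation) or box H/ACA snoRNAs (guides of pseudouridylation) are trimmed and bound by proteins. The exons of the noncoding hosts carry only short reading frames, so ribosomes that engage them meet an early stop codon and the spliced RNA is degraded in the cytoplasm while the snoRNA stays in the nucleus. The level of the spliced host RNA therefore depends on transcription, on splicing and on translation-coupled decay, and Gas5 takes its name from its accumulation in growth-arrested cells. Many host genes belong to the 5' TOP class, whose RNAs begin with C and a run of pyrimidines, as do those of ribosomal proteins.

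The sequences around the annotated starts show how alike or unlike the promoters of these hosts are. From RefSeq, build GRCm38.p6, 9 starts for 8 of the 10 symbols were used. No start of Snhg4 or Snhg6 was included, so the counts below do not cover these hosts. Each line gives 45 bases before and 35 bases from the start on. Capitals upstream mark the letters TATA where they begin 40 to 16 bases before the start. Capitals at the start mark a C followed by 4 or more bases that are each C or T, beginning within 10 bases of the start. Both were searched on the gene's own strand, and the 2 motifs do not overlap in any line.
Gas5, chr1:161035121-161035200, plus strand: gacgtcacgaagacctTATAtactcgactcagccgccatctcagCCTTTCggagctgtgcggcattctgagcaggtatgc
Snhg8, chr3:123508302-123508381, minus strand: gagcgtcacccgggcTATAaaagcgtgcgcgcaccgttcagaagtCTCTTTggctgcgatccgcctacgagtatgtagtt
Snhg12, chr4:132308633-132308712, plus strand: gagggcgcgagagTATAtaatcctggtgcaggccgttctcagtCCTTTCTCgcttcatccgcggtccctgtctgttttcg
Snhg5, chr9:88522863-88522942, minus strand: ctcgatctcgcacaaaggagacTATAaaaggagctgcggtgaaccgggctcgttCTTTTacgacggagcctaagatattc
Snhg1, chr19:8723442-8723521, plus strand: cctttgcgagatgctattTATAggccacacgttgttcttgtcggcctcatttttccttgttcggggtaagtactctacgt
Snhg3, chr4:132353652-132353731, minus strand: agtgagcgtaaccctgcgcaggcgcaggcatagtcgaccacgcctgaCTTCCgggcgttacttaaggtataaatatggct
Snhg15, chr11:6528726-6528805, minus strand: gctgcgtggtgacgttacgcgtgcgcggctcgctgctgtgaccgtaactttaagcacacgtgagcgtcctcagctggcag
Zfas1, chr2:167062889-167062968, plus strand: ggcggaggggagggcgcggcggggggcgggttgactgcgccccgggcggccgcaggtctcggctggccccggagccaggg

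TATA was present at 5 of the 9 starts (Gas5, Snhg1, Snhg5, Snhg8 and Snhg12), against 6.32% of all 32851 starts in the RefSeq table. The pyrimidine run was present at 5 of the 9 starts (Gas5, Snhg3, Snhg5, Snhg8 and Snhg12), against 29.0% of all starts. It was longest in Snhg12, at 8 bases, and 6 bases long in Gas5 and Snhg8. The 8 letters TGACGTCA, searched on both strands of the 300 bases around each start, were present at the Gas5 start shown and at the Snhg15 start, against 1.79% of all starts. The second annotated Gas5 start, which lies further upstream, had none of the 3 and is not shown.

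The libraries held between 34524433 and 36867313 counts in mutant cells and between 33633196 and 43928723 in control cells. The defining CD4 T cell markers (6 of 6 detected, Cd3e, Cd3d, Cd3g, Cd4, Trac and Cd28) summed to 1285 to 1958 CPM in mutant and 1147 to 1650 CPM in control libraries. The 4 B cell markers summed to 3.59 to 28.8 CPM in mutant and 1.89 to 4.12 CPM in control libraries, the highest value being that of mutant 2. The 2 CD8 markers summed to 6.56 to 17.3 and 5.81 to 40.4 CPM, the 4 myeloid markers to 1.39 to 3.90 and 1.25 to 2.64 CPM, the mutant range standing before the control range in each case. The 3 NK cell and 2 erythroid markers stayed below 1 CPM in sum in every library. Mutant 1 stood apart. Log2 CPM minus the control mean had a median of -0.90 over genes of T cell activation in mutant 1, while mutant 2 was at -0.085 and mutant 3 at -0.093. Over genes of the naive and quiescent state the median was 1.45 in mutant 1, 0.15 in mutant 2 and -0.22 in mutant 3. Of the 11 activation genes, 9 were measured lower in mutant cells (47.1% of all genes were). With mutant 1 left out, 6 were lower and 5 higher. All mutant values lay below all control values in 4 of the 11, as in 7.48% of all genes. Among these, Irf4 was at 575, 723 and 750 CPM in mutant and 1024, 952 and 1051 CPM in control libraries. All 10 proliferation genes were measured lower, with and without mutant 1. The part of these states in the results below was not tested. Sf3b1 itself was at 627 ± 30.4 CPM in mutant and 661 ± 44.3 CPM in control cells (SD, n = 3), which does not show the allele.

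None of the 11 rows passed a test of the difference between mutant and control cells, and in 10 of them the groups overlapped. By edgeR's quasi-likelihood test 0 of the 11 rows passed an adjusted p of 0.05, where 0% of all 18323 genes tested did so, and their adjusted p ran from 0.697 upwards. No row had an unadjusted p under 0.05 in edgeR, against 7.62% of all genes (3.48% for those also lower), or in limma-voom, against 7.09%. DESeq2 also called 0 of the 11 rows, against 0.64% of the genes to which it gave an adjusted p, and limma-voom called none of them after adjustment, as for 0% of all genes. The log2 fold changes ran from -0.58 to 0.32, with 6 rows measured higher and 5 lower in mutant cells, where 47.1% of all genes were lower, and a median of 0.006, beside 0.024 over all genes tested. No row was without overlap and higher in mutant cells (6.6% of all genes), and 1 was without overlap and lower (7.48% of all genes). The tally of directions rests on single libraries, since leaving out mutant 1 gave 10 rows higher and 1 lower, and leaving out mutant 3 gave 3 rows higher and 8 lower. In bulk RNA, fewer cells of a type and less RNA per cell cannot be told apart. Per kilobase of the longest spliced transcript in the GENCODE M21 annotation, Gas5 was the most abundant host, at 680 ± 276 CPM per kb in mutant and 715 ± 82.9 CPM per kb in control cells. Snhg1 followed at 334 ± 130 and 386 ± 4.57 CPM per kb and Zfas1 at 254 ± 59.0 and 253 ± 26.5 CPM per kb, the mutant value standing first in each case. In mutant cells the SDs of these 3 neighbours in the order overlapped, and in control cells they did not. Snhg15, Snhg6 and Snhg4 were at 114 ± 4.42, 106 ± 7.47 and 104 ± 6.84 CPM per kb in control cells, which did not differ beyond their spread. Snhg5, Snhg8, Snhg12 and Snhg3 lay below them, down to 32.0 ± 9.68 CPM per kb in mutant and 25.8 ± 7.67 CPM per kb in control cells for Snhg3. The 11 rows together made up 859, 1442 and 1878 CPM in mutant 1, 2 and 3 and 1311, 1525 and 1423 CPM in control 1, 2 and 3. The mutant sums lay on both sides of the control sums, and Gas5 took 30.0% to 33.2% of them in mutant and 31.6% to 34.5% in control libraries.

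**Figure D1:**
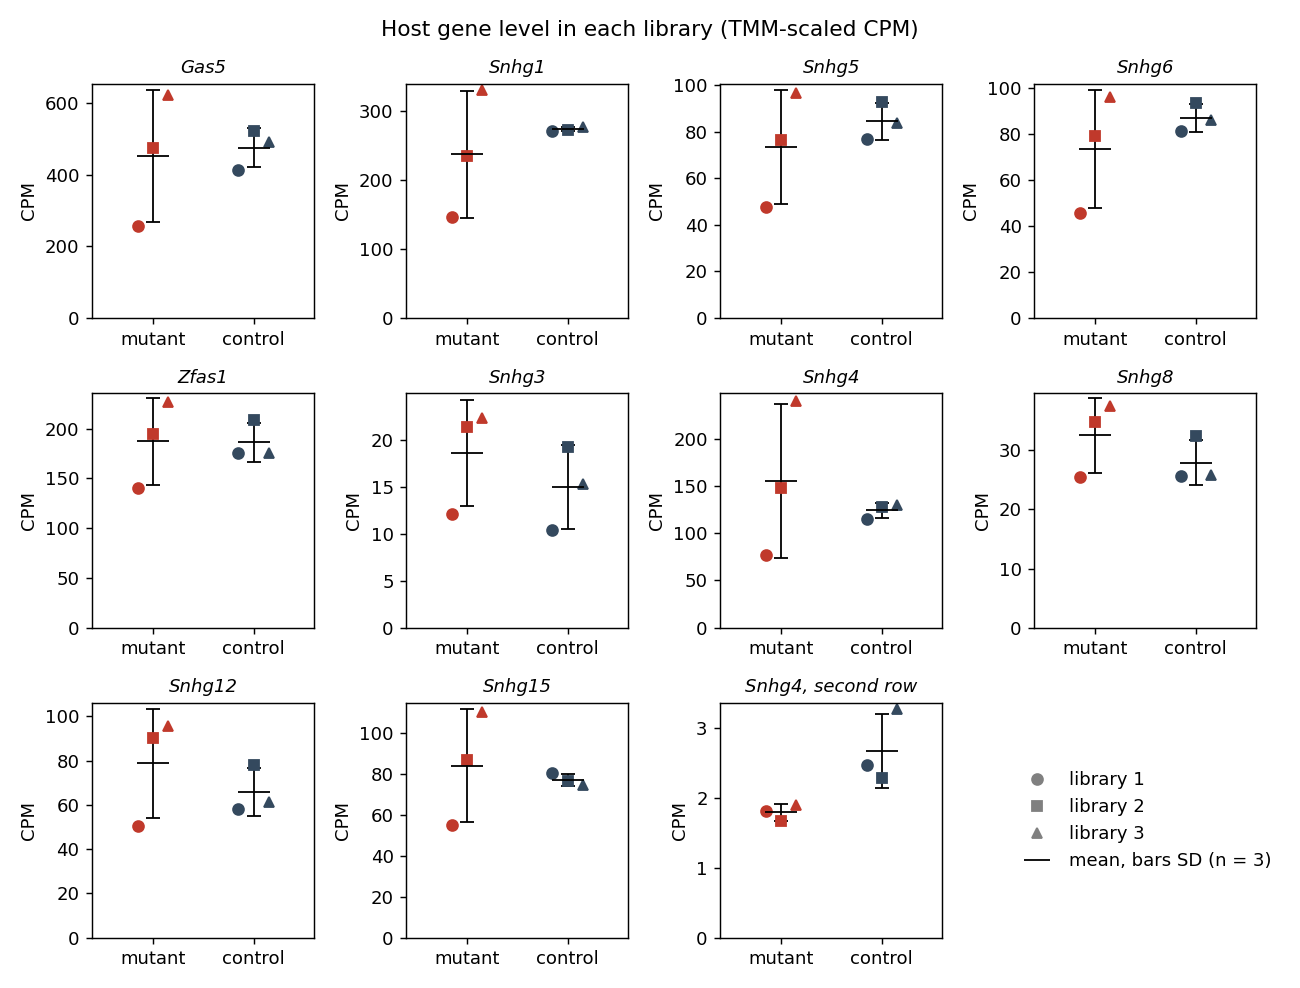
Level of each host gene row in CPM (vertical axes, from 0), mutant libraries on the left in red and control libraries on the right in dark blue, with marker shapes for libraries 1, 2 and 3 and black bars for the mean and SD (n = 3). Gas5 ran from 258 to 623 CPM in mutant and from 415 to 522 CPM in control libraries, and in 10 of 11 rows the mutant values enclose or overlap the control values.

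The hosts of box C/D snoRNAs are Gas5, Snhg1, Snhg5, Snhg6 and Zfas1. Gas5 (ENSMUSG00000053332), with 9 annotated snoRNA loci inside it, was at 258, 475 and 623 CPM in mutant 1, 2 and 3, against 415, 522 and 491 CPM in control 1, 2 and 3. Mutant 1 lay below and mutant 3 above every control library. The log2 fold change of Gas5 was -0.073 ± 0.294 (SE), with a 95% interval from -0.75 to 0.61 and an adjusted p of 0.953 in edgeR. Snhg1 (ENSMUSG00000108414), which holds 8 snoRNA loci, was at 146, 234.7 and 330 CPM in mutant libraries and at 271, 272 and 277 CPM in control libraries. The control libraries were nearly equal, while the mutant libraries lay on both sides of them. The log2 fold change of Snhg1 was -0.21 ± 0.27 (SE, 95% interval from -0.82 to 0.41, edgeR adjusted p = 0.853).

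Snhg5 (ENSMUSG00000097195), host of the paired snoRNAs Snord50a and Snord50b, was at 47.6, 76.6 and 96.6 CPM in mutant and 77.1, 93.0 and 83.8 CPM in control libraries. Snhg6 (ENSMUSG00000098234), host of Snord87, was at 45.4, 78.9 and 95.9 CPM in mutant and 81.1, 93.3 and 86.1 CPM in control libraries. In both genes mutant 1 and mutant 2 lay below every control library and mutant 3 above, and the log2 fold changes were -0.20 ± 0.25 and -0.24 ± 0.26 (SE). Zfas1 (ENSMUSG00000074578), which begins 81 bases from the start of the zinc finger gene Znfx1 on the other strand in GENCODE M21, was at 140, 194 and 227 CPM in mutant and 175, 209 and 175 CPM in control libraries. Its means were the closest of all rows, at 187 ± 43.6 CPM in mutant and 186 ± 19.5 CPM in control cells (SD, n = 3), with a log2 fold change of 0.006 ± 0.194 (SE). Without mutant 1 the log2 fold changes of Gas5, Snhg1, Snhg5 and Snhg6 were 0.22, 0.060, 0.046 and 0.023, of the opposite sign.

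The hosts of box H/ACA snoRNAs are Snhg3, Snhg4, Snhg8, Snhg15 and Snhg12, the last of which also holds the box C/D gene Snord99. The main Snhg4 row (ENSMUSG00000117869) was at 77.3, 148 and 239 CPM in mutant libraries and at 115, 128 and 130 CPM in control libraries. Mutant 3 had the highest and mutant 1 the lowest value of the 6, and the difference on the log2 scale was 0.32 ± 0.35 (SE, 95% interval from -0.49 to 1.13). Snhg4 was measured higher in mutant cells by 0.66 without mutant 1 and lower, at -0.14, without mutant 3. The second Snhg4 row (ENSMUSG00000117694), a low-level transcript that GENCODE M21 names Gm28285 and that overlaps the gene Matr3, was the only one of the 11 whose groups did not overlap. It was at 1.81, 1.67 and 1.90 CPM in mutant and 2.47, 2.28 and 3.28 CPM in control libraries. All 3 mutant values lay below all 3 control values, which is so for 7.48% of all genes tested, and its log2 fold change was -0.58 ± 0.29 (SE; edgeR adjusted p = 0.697). Reads of these rows can be split between them, and their sum followed the main row, with a log2 fold change of 0.31 ± 0.35 (SE).

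Snhg3 (ENSMUSG00000085241), host of Snora73a and Snora73b, was at 12.1, 21.4 and 22.3 CPM in mutant and 10.4, 19.3 and 15.3 CPM in control libraries. The groups overlapped, and the log2 fold change was 0.31 ± 0.30 (SE). A gene on the other strand, Gm17300, overlaps Snhg3 and was at 43.3, 93.5 and 112 CPM in mutant and 70.8, 90.9 and 79.6 CPM in control libraries. Whether counting used strand is not stated, and reads from this overlapping pair cannot be told apart. The sum of Snhg3 and Gm17300 had a log2 fold change of 0.090 ± 0.305 (SE). Snhg12 (ENSMUSG00000086290) was at 50.5, 90.2 and 95.4 CPM in mutant and 57.9, 78.1 and 61.4 CPM in control libraries. Snhg15 (ENSMUSG00000085156), host of Snora9, was at 54.9, 86.9 and 110 CPM in mutant and 80.3, 76.3 and 74.5 CPM in control libraries. Snhg8 (ENSMUSG00000104960), host of Snora24, was at 25.4, 34.7 and 37.4 CPM in mutant and 25.6, 32.3 and 25.8 CPM in control libraries. In all 3 genes mutant 1 was lowest and mutant 2 and mutant 3 lay above every control library, with log2 fold changes of 0.26 ± 0.25, 0.12 ± 0.24 and 0.22 ± 0.19 (SE).

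With the second Snhg4 row left out, the C/D and H/ACA classes of host did not overlap in their fold changes. The grouping was made after the values were seen and is therefore given without a test. The second Snhg4 row also holds the box H/ACA gene Snora74a. Its log2 fold change of -0.58 lay below the C/D range, so with it the classes overlap. Log2 fold changes ran from 0.12 to 0.32 in the 5 hosts of box H/ACA snoRNAs (median 0.26) and from -0.24 to 0.006 in the 5 hosts of box C/D snoRNAs (median -0.20). Without mutant 1 the ranges were 0.37 to 0.66 and 0.023 to 0.22. Without mutant 3 they lay closest, at -0.14 to 0.16 in the H/ACA hosts and -0.53 to -0.16 in the C/D hosts, with medians of 0.091 and -0.45. Without control 2 they also nearly met, at 0.113 to 0.53 in the H/ACA hosts and -0.21 to 0.093 in the C/D hosts. Within each library, the median level of the H/ACA hosts minus that of the C/D hosts, each relative to the control mean, was 0.51, 0.46 and 0.28 on the log2 scale in mutant 1, 2 and 3. In control 1, 2 and 3 it was -0.022, 0.082 and -0.038. All 3 mutant differences lay above all 3 control differences. These differences restate the fold changes by which the classes were seen to differ. Those of the controls lie near 0 because levels are relative to the control mean, so the split is not separate evidence. In mutant 1 the medians of both classes were below the control mean. The H/ACA group includes Snhg3, whose value is 0.090 when it is summed with Gm17300, still above the C/D range. A sum with Rcc1, which overlaps Snhg3 on the same strand, was not made.

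**Figure D2:**
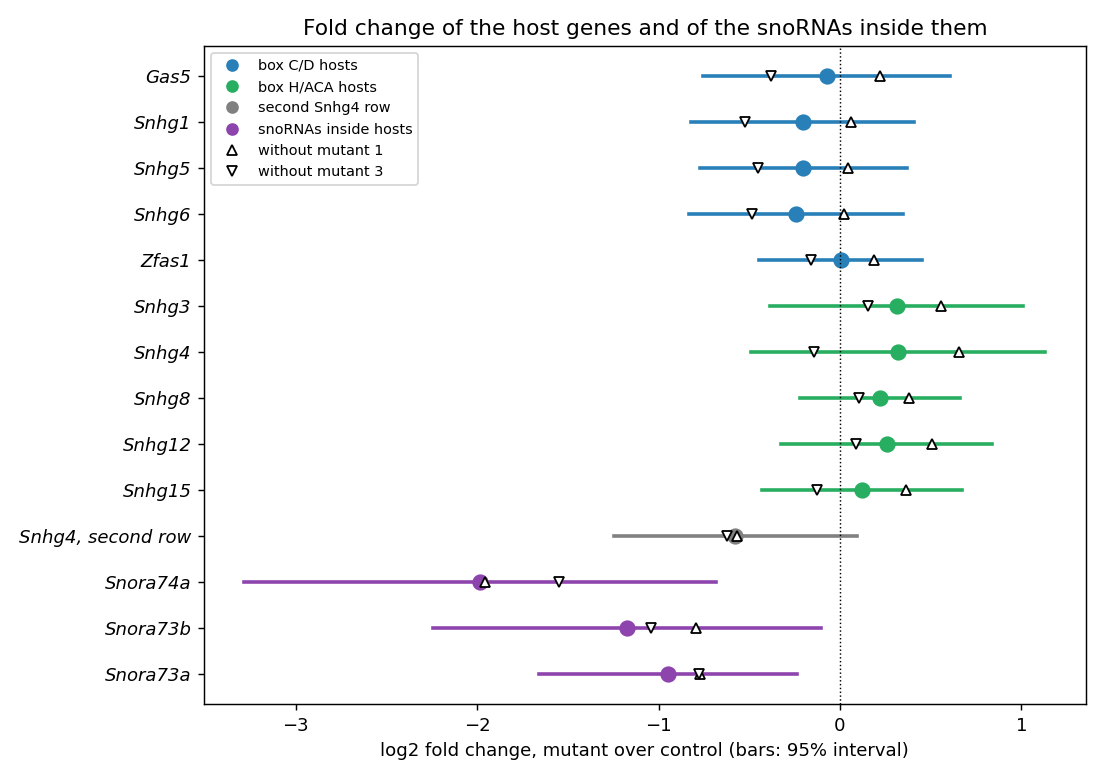
Log2 fold change of each row, mutant over control (horizontal axis), with its 95% interval as a bar, for hosts of box C/D snoRNAs (blue), hosts of box H/ACA snoRNAs (green), the second Snhg4 row (grey) and the snoRNAs counted as rows (purple); open triangles give the value without mutant 1 (pointing up) and without mutant 3 (pointing down). All 11 host rows have intervals that include 0. The 3 snoRNAs have fold changes from -1.99 to -0.95 and intervals that lie below 0, that of Snora73b ending at -0.10.

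What the host genes shared was their order across libraries. In 9 of the 11 rows mutant 1 was the lowest of the 6 libraries and mutant 3 the highest, a combination found in 5.91% of all 18323 genes tested. Mutant 1 was lowest in 9 rows (29.2% of all genes) and mutant 3 highest in 10 (12.4% of all genes). The spread among mutant libraries was larger than among control libraries in 10 of 11 rows (65.3% of all genes). The median SD of the log2 level was 0.51 among mutant and 0.15 among control libraries for the 11 rows, beside 0.33 and 0.21 for all genes tested. The rows share their libraries and are not independent of each other. Mean standardised levels of the rows were -1.47, 0.25 and 1.00 in mutant 1, 2 and 3 and -0.27, 0.40 and 0.082 in control 1, 2 and 3. Each of 10 rows followed the mean of the others with a Pearson r of 0.71 (Snhg3) to 0.99 (Gas5) over 6 samples, and the second Snhg4 row did not (r = -0.023).

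Among 9770 other genes whose log2 CPM averaged at least 3, the 5 closest to that mean pattern were Timm9, Rpl21, Ammecr1l, Patl1 and Gm17300, with r from 0.993 to 0.994 over 6 samples. Timm9, a chaperone of the mitochondrial intermembrane space, was at 19.8, 30.1 and 38.1 CPM in mutant and 27.3, 31.5 and 28.3 CPM in control libraries. Rpl21 encodes a ribosomal protein and Patl1 a decapping factor of mRNA decay, and Gm17300 is the gene that overlaps Snhg3. These correlations are given as a description: with 6 libraries they rest largely on mutant 1 and mutant 3.

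**Figure D3:**
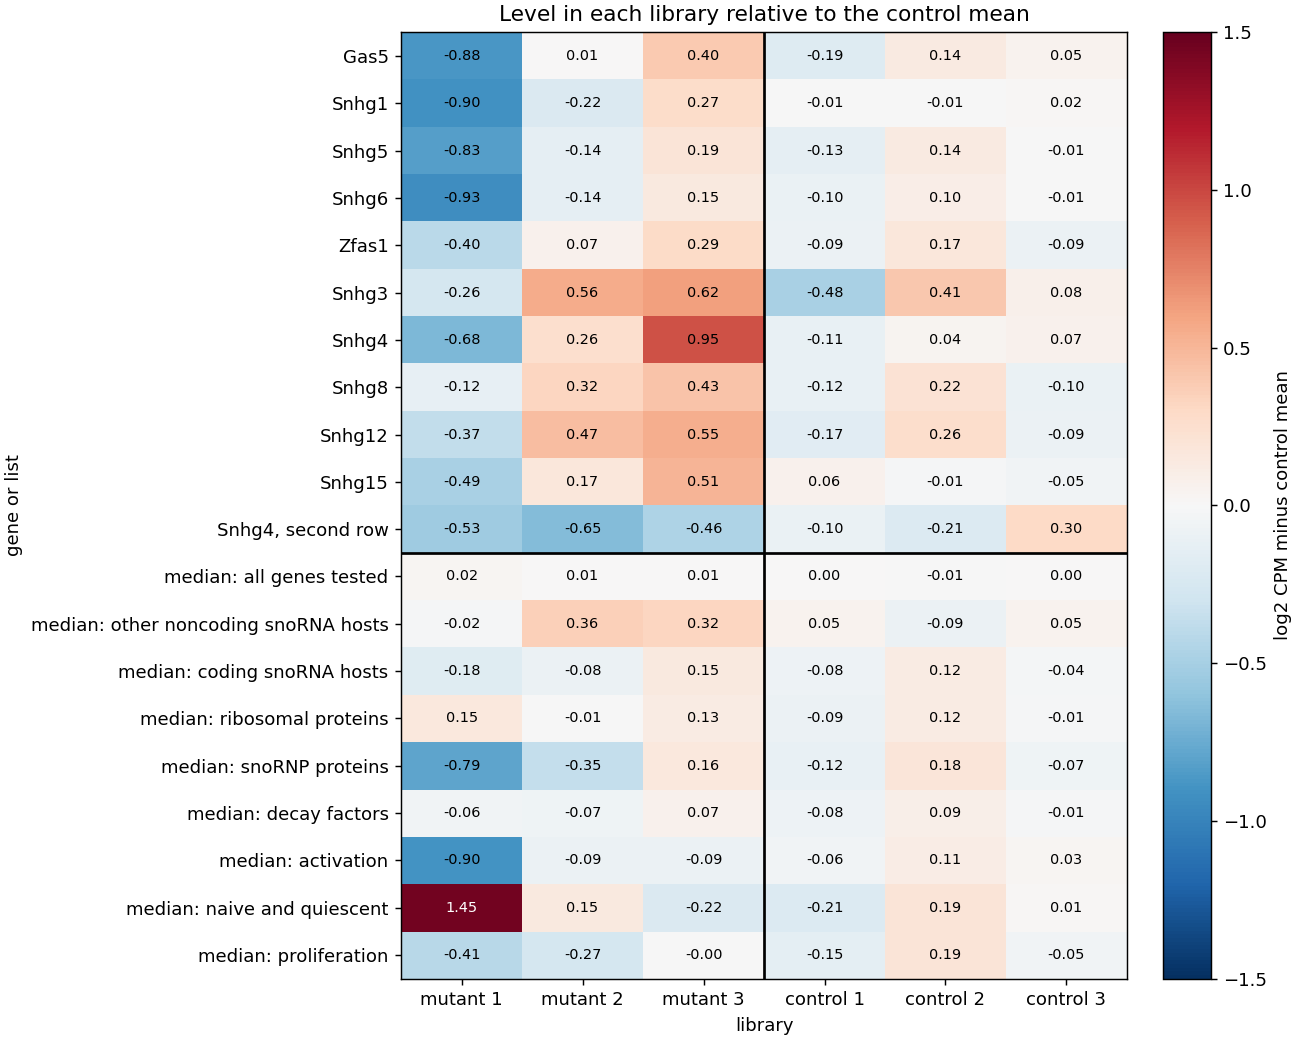
Level of each host row (top) and median level of other gene lists (below the line) in each library, as log2 CPM minus the control mean, from blue (lower) to red (higher). Mutant 1 is blue in all 11 host rows, where the activation list is at -0.90 and the naive and quiescent list at 1.45, while 10 host rows are red in mutant 3.

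Other genes of the snoRNA pathway were read from lists of its known members. Box C/D and H/ACA snoRNAs are bound by core proteins (Fbl, Nop56, Nop58 and Snu13, or Dkc1, Gar1, Nhp2 and Nop10) with the help of assembly factors. Of these 15 genes, 0 passed edgeR's test, 0 were measured higher and 15 lower in mutant cells, with a median log2 fold change of -0.29. Over all genes tested, 47.1% were lower. Mutant 1 was the lowest library in all 15, as in 29.2% of all genes, and without it the median was -0.084, with 5 measured higher and 10 lower, while without mutant 3 it was -0.57. Ruvbl2, an ATPase of snoRNP assembly, was at 34.8, 57.7 and 75.3 CPM in mutant and 75.0, 81.5 and 72.5 CPM in control libraries. Nufip1 and Shq1, assembly factors of box C/D and box H/ACA particles, had log2 fold changes of -0.29 ± 0.18 and -0.35 ± 0.23 (SE). Relative to the control mean, the median level of the host rows was -0.53, 0.065 and 0.40 in mutant 1, 2 and 3 and that of the snoRNP genes -0.79, -0.35 and 0.16.

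Of 35 protein-coding snoRNA hosts, 0 passed, 16 were measured higher and 19 lower, with a median of -0.024. Without mutant 1 these hosts were 25 higher and 10 lower (median 0.053), and without mutant 3 they were 11 higher and 24 lower (median -0.11). The translation and chaperone genes among them included Rps2 at 927 ± 157 CPM in mutant and 1141 ± 63.1 CPM in control cells and Hspa9, a mitochondrial chaperone, at 612 ± 249 and 841 ± 29.5 CPM. Rpl30 was at 124 ± 9.56 and 108 ± 8.48 CPM (SD, n = 3). In 14 of the 35 mutant 1 was lowest and mutant 3 highest, or 40%, against 81.8% of the noncoding host rows. The same order was found in 7 of the 15 snoRNP genes, or 46.7%, and in 5.91% of all genes. Of 79 cytosolic ribosomal protein genes, the best known 5' TOP class, 0 passed, 67 were measured higher and 12 lower, with a median of 0.090. Over all genes tested, 47.1% were lower. Rps15a, at 370 ± 69.4 CPM in mutant and 297 ± 9.65 CPM in control cells, and Rps7, at 102 ± 15.2 and 85.1 ± 5.40 CPM, were highest in mutant 1, where the noncoding hosts were lowest. Rps2, also of this list, was lowest in mutant 1 at 807 CPM, and so was Rpl21 at 132 CPM. Mutant 1 was the lowest library in 9 of the 79 genes, or 11.4%, against 29.2% of all genes. Mutant 3 was the highest in 24 of the 79, or 30.4%, against 12.4% of all genes and 90.9% of the host rows. The median level of the ribosomal protein genes in mutant 1 was 0.15, against -0.53 for the 11 host rows.

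The factors of nonsense-mediated decay and of the exon junction complex gave no common direction with all libraries included. Of 21 genes, 0 passed, 11 were measured higher and 10 lower, with a median of 0.027. With mutant 3 left out, 7 were higher and 14 lower, with a median of -0.054. Of the 21, 1 was without overlap and higher (6.6% of all genes). Without overlap and lower were 2, Magohb among them (7.48% of all genes). The exon junction genes Magohb and Rbm8a were at 6.07 ± 2.82 and 77.2 ± 16.8 CPM in mutant and at 9.71 ± 0.437 and 93.9 ± 9.09 CPM in control cells. Pnrc2, which links decay to decapping, was at 95.4 ± 32.6 CPM in mutant and 74.8 ± 4.77 CPM in control cells. Of 8 stress-response genes whose RNAs are also targets of this decay or act beside Atf4, 0 passed. Of the 8, 2 were measured higher and 6 lower (47.1% of all genes were lower), with a median of -0.41, or -0.68 without mutant 3. Atf4, the transcription factor of the amino acid response, was at 148, 318 and 307 CPM in mutant and 436, 341 and 445 CPM in control libraries. It was without overlap and lower in mutant cells, as 7.48% of all genes were. Its log2 fold change was -0.66 ± 0.29 (SE), with an edgeR adjusted p of 0.656. Chac1 and Atf3 were at 2.22 ± 2.93 and 2.22 ± 2.51 CPM in mutant and at 10.1 ± 6.22 and 8.77 ± 6.57 CPM in control cells. In both genes control 2 lay among the mutant libraries.

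The snoRNAs inside the hosts were measured lower in mutant cells, without passing edgeR's adjusted threshold. Their hosts Snhg3 and Snhg4 (main row) were measured higher, also without passing. The second Snhg4 row, inside which Snora74a also lies, was measured lower (log2 fold change -0.58). Snhg3 was at 0.090 when summed with Gm17300. GENCODE M21 places 35 genes of snoRNA type inside the host genes, and 3 of them had a row in the table: Snora73a and Snora73b in Snhg3 and Snora74a in Snhg4. Snora73 is the box H/ACA RNA U17, which acts in the cleavage of the ribosomal RNA precursor rather than in modification. The 2 copies are shown because they are 96.6% identical, so that reads can be assigned to either; capitals mark the 7 positions at which they differ, and coordinates are of build GRCm38, minus strand.
Snora73a, chr4:132352775-132352979: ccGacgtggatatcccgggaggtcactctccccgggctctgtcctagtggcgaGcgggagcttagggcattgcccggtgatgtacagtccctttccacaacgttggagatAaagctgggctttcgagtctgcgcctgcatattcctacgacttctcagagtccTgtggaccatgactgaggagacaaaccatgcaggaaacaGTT
Snora73b, chr4:132352322-132352526: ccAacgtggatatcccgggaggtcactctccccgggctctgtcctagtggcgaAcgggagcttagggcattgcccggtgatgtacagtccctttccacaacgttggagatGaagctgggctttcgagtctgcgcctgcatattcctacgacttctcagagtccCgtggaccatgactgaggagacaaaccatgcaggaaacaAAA

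Snora73a was at 19.6, 38.5 and 19.2 CPM in mutant libraries and at 63.1, 40.2 and 45.6 CPM in control libraries. Snora73b was at 10.3, 43.9 and 19.7 CPM in mutant and 67.4, 49.2 and 50.2 CPM in control libraries. Mutant 2 came close to control 2 in both, and all mutant values lay below all control values, as in 7.48% of all genes. Log2 fold changes were -0.95 ± 0.31 for Snora73a, -1.17 ± 0.46 for Snora73b and -1.06 ± 0.37 (SE; 95% interval from -1.91 to -0.22) for the sum of both, with edgeR adjusted p-values of 0.634, 0.645 and 0.644. Snora74a, a box H/ACA RNA also known as U19, was at 5.68, 10.2 and 1.68 CPM in mutant libraries and at 30.1, 16.9 and 22.5 CPM in control libraries, the lowest control value being above the highest mutant value. On the log2 scale the difference was -1.99 ± 0.56 (SE, 95% interval from -3.28 to -0.69). It passed DESeq2's test (adjusted p = 0.0228), as did 0.64% of genes, but not edgeR's (adjusted p = 0.598).

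Relative to the host in the same library, all mutant libraries lay below all control libraries for each of the 3 snoRNAs. Snora74a minus Snhg4 was -3.75, -3.85 and -7.10 on the log2 scale in mutant libraries and -1.93, -2.91 and -2.52 in control libraries, a difference of -2.45. The differences were -1.71 for Snora73b and -1.30 for Snora73a against Snhg3. A two-sided exact permutation test gave p = 0.1 for each, the smallest p that 3 samples against 3 allow. The snoRNAs alone already lay below every control library and the hosts used were measured higher, so the tests add little to those values. Snora73a and Snora73b share a host and can share reads, so they are not separate results. For Snora74a the main Snhg4 row was used, not the second. Of the 14 snoRNA rows that passed the count filter, these 3 included, 11 were measured lower and 3 higher in mutant cells. Their median log2 fold change was -0.47, and 47.1% of all genes were lower. No snoRNA row but these 3 was without overlap between the groups, as 14.1% of all genes were (7.48% lower). All small structural RNAs together took 1.71%, 2.52% and 1.598% of the counts in mutant 1, 2 and 3, against 2.75%, 2.502% and 2.41% in control 1, 2 and 3. Mutant 2, with the highest share among the mutants, also had the highest level of each of the 3 snoRNAs among them. The part of small RNA recovery in this result was not tested.

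The gene next to a host can share its promoter, and for Snhg1 this is Slc3a2, which encodes the heavy chain of amino acid transporters and is read in the opposite direction from a start 106 bases away in GENCODE M21. Slc3a2 was at 71.3, 114 and 104 CPM in mutant libraries and at 190, 134 and 169 CPM in control libraries. All mutant values lay below all control values, as in 7.48% of all genes. The log2 fold change was -0.77 ± 0.21 (SE), with an adjusted p of 0.598 in edgeR and 0.141 in DESeq2. Slc3a2 minus Snhg1 was -1.04, -1.05 and -1.67 on the log2 scale in mutant and -0.52, -1.02 and -0.71 in control libraries. The difference was -0.50 (two-sided exact permutation p = 0.1, the smallest possible), and mutant 1 and mutant 2 were within 0.1 of control 2. Znfx1, the neighbour of Zfas1, was at 52.9 ± 2.98 CPM in mutant and 44.8 ± 3.19 CPM in control cells (SD, n = 3). It was without overlap and higher in mutant cells, as 6.6% of all genes were. Its log2 fold change was 0.24 ± 0.13 (SE), with an edgeR adjusted p of 0.713. Zbtb37, the neighbour of Gas5, was at 75.3 ± 3.82 CPM in mutant and 74.1 ± 17.4 CPM in control cells (SD, n = 3). Neither had the low value in mutant 1 that its host neighbour had.

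**Figure D4:**
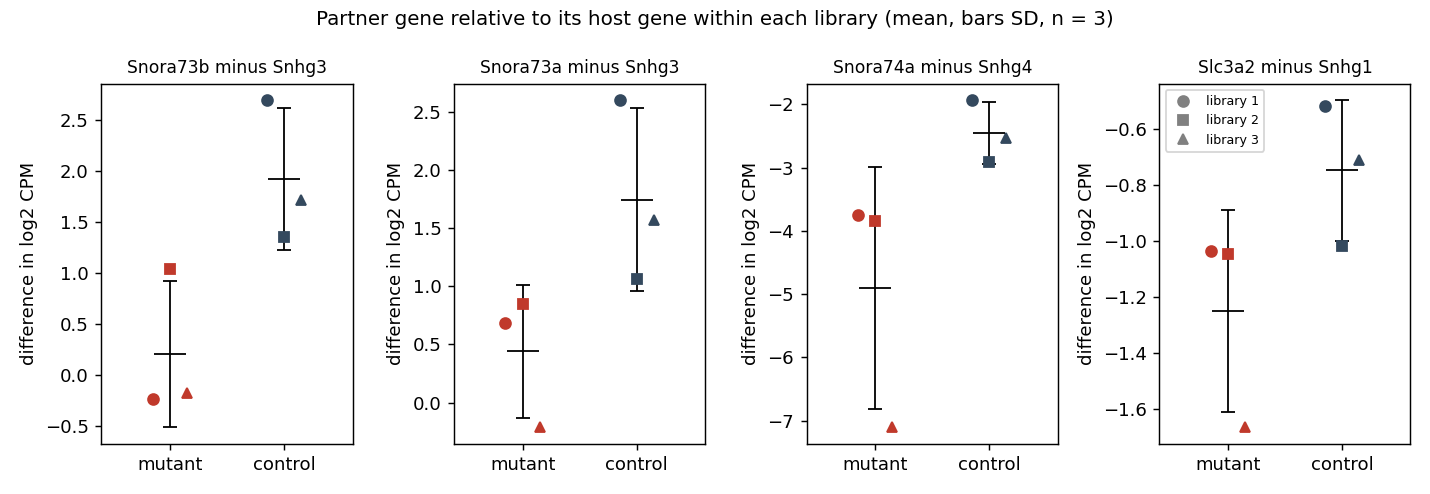
Log2 CPM of a partner gene minus that of its host in each library (vertical axes), for the 3 snoRNAs and for Slc3a2 against Snhg1, mutant on the left in red and control on the right in dark blue, with the mean and SD (n = 3). For Snora74a the mutant libraries sit between -7.10 and -3.75 and the control libraries between -2.91 and -1.93.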

How the data were processed

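The authors deposited a table of estimated counts per gene, not normalized, with 1 column for each of 6 libraries; 58.3% of its values were whole. Per the labels' protocols, total RNA was depleted of ribosomal RNA before library preparation. Per the submitters' processing notes, STAR 2.7.8a and Partek and the builds GRCm39 and mm39 were used; neither the annotation nor strandedness of counting is stated. The reference here was of GRCm38, and was used for names, transcript lengths, gene neighbours and sequences.

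Values were rounded, filtered with filterByExpr (minimum count 10; 18323 genes kept), scaled by TMM and compared, mutant over control, with edgeR 4.0.16's quasi-likelihood test in R 4.3.3, without covariates, with Benjamini-Hochberg adjustment across the 18323 genes (threshold 0.05). Log2 CPM used a prior count of 2. Replicates differed by more than counting error (lowest chi-square/df 19.0). The procedure was tested on simulated data. Alternatives were DESeq2 1.42.0, limma-voom (limma 3.58.1), other scaling, filtering and rounding, a replicate block and leaving out each library. Host genes and lists were chosen with earlier results of these data known. The text names all host rows, the 3 genes of each list with the smallest p and snoRNAs with a row inside a host. It also names neighbours on the opposite strand within 2000 bases, the 5 genes nearest in pattern, Sf3b1 and some genes that overlap a host. Members of other lists named without values are background.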

Additional observations from a re-analysis of the deposited data

How the results depend on the processing

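No host row passed the threshold with another test, scaling, filter or rounding, with small structural and mitochondrial RNA genes removed, with the block, or without any single library. Over all genes DESeq2 called 100, against 0 in edgeR, where 1396 had an unadjusted p under 0.05, and limma-voom called 0, where 1299 had. The median log2 fold change of the host rows, 0.006, ran from -0.16 without mutant 3 to 0.22 without mutant 1 when single libraries were left out. Zfas1, at 0.006, was at -0.016 with DESeq2, -0.017 with limma-voom, -0.010 without a count filter and -0.017 with the replicate block, and from -0.16 to 0.19 when single libraries were left out. Over those 6 fits Gas5 ran from -0.38 to 0.22, Snhg1 from -0.53 to 0.060, Snhg5 from -0.45 to 0.046, Snhg6 from -0.49 to 0.023, Snhg15 from -0.13 to 0.37 and Snhg4 from -0.14 to 0.66. Direction held in all 6 for Snhg3 (0.10 without control 1 to 0.56 without mutant 1), Snhg8 (0.10 without mutant 3 to 0.38 without mutant 1), Snhg12 (0.091 without mutant 3 to 0.51 without mutant 1), the second Snhg4 row (-0.68 to -0.39), Snora73a (-1.34 to -0.74), Snora73b (-1.87 without mutant 2 to -0.80 without mutant 1) and Snora74a (-2.63 to -1.55). The replicate numbers did not pair the samples (correlations of deviations from -0.067 to -0.028), and with the replicate block 0 genes passed, with a median of -0.017 for the host rows. Sums of rows that can share reads were chosen after seeing the data. The cause of these changes was not tested.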

Other observations

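Of 8 other noncoding snoRNA hosts that passed the count filter, none of which belongs to the 10 described, 6 were measured higher and 2 lower in mutant cells. Over all genes tested, 47.1% were lower. The 8 hosts had a median log2 fold change of 0.18, and none passed edgeR's test. The median was 0.35 without mutant 1 and 0.11 without mutant 3. Dancr was at 12.7, 20.2 and 26.2 CPM in mutant libraries and at 9.12, 14.2 and 11.7 CPM in control libraries (log2 fold change 0.75 ± 0.29, SE; edgeR adjusted p = 0.645). Snhg20 was at 12.4, 14.95 and 11.5 CPM in mutant and 9.03, 8.77 and 9.47 CPM in control libraries. It was without overlap and higher in mutant cells, as 6.6% of all genes were. Its log2 fold change was 0.51 ± 0.18 (SE), with an edgeR adjusted p of 0.644. Epb41l4aos was at 23.4 ± 6.73 CPM in mutant and 17.8 ± 3.22 CPM in control cells (SD, n = 3). Over the 8 genes mutant 1 was the lowest library in 3 (29.2% of all genes), mutant 3 the highest in 4 (12.4% of all genes) and both held in 2 (5.91% of all genes). Of the 3 genes named, mutant 3 was highest in Dancr and Epb41l4aos and mutant 1 lowest in none.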
